A study of Mus musculus with 7 samples.

Results

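The endoderm and paraxial mesoderm cultures derived from mouse ES cells shared a set of genes that set both apart from the undifferentiated cells and from the ectoderm culture. A gene was taken into it where the lower of its signals in endoderm (End) and paraxial mesoderm (Pme) was at least 2-fold the higher of its signals in undifferentiated SK7 ES cells (SK7_ESC) and ectoderm (Ect), or the reverse, with signals under 50 treated as background and raised to 50. Of 18194 measured genes, 94 (0.517%) were higher in both End and Pme and 30 (0.165%) were lower in both, which made 124 members. The members were thus selected on their signals in the 4 cultured arrays, so that these are given as a description, without a test, and nothing is drawn from their number. The 3 adult arrays entered only the choice of a probe set for each gene. Of the measured genes, 10013 reached 50 in at least 1 cultured array.

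RNA was hybridized to Affymetrix mouse expression arrays, 1 for each condition. SK7 is a male ES cell line that carries a GFP reporter transgene driven by the Pdx1 promoter, and all 4 cultured samples come from this line and carry the transgene. Ect, End and Pme were differentiated from it in culture, and the adult samples are brain (Brain), liver (Liver) and skeletal muscle (Sk_muscle) of male ICR mice older than 9 weeks. Male sex and the strain ICR are labelled for all 7 samples, and the agents and times of differentiation are not given in the sources used here. There were no replicates, so that no difference could be set against the spread between samples and no test was possible. In bulk RNA of this kind fewer cells of a type and less RNA per cell cannot be told apart.

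The labels of the cultures were checked against marker lists, and in counts of genes higher or lower in 1 array than in another the difference was at least 2-fold with signals under 50 raised to 50. All 26 pluripotency genes reached 50 in SK7_ESC, and 25, 23 and 24 of them were lower in Ect, End and Pme than in SK7_ESC, where 4.89%, 3.81% and 4.55% of all genes were. The counts for End and Pme include Sox2, which the rule selected. The definitive endoderm list (25 genes) had 20 genes higher in End, and 3 higher in Pme, than in SK7_ESC, against 4.89% and 6.75% of all genes. Both counts include Gata6 and Dsp, which the rule selected. The paraxial mesoderm list (24 genes) was split. In Pme 4 genes were higher than in SK7_ESC, namely Pdgfra at 1062, Cdh11 at 2208, Prrx1 at 305 and Twist1 at 199.5, and 6 reached 50. In all 4 cultured arrays 11 genes were under 50, among them Tbx6 at 17.7, Msgn1 at 2.7 and Meox1 at 16 in Pme, which are known from presomitic mesoderm and somites. In the same array 17 of 20 genes of fibroblasts and feeder cells were higher than in SK7_ESC, with a summed signal of 20813 in Pme, 2791 in End, 8443 in Ect and 3571 in SK7_ESC. None of those 20 genes, of which Cdh11 is on both lists, was a member. The name Pme is therefore used below as the label gives it.

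Keratin 8 and keratin 18 are the partner proteins that form the intermediate filaments of simple epithelia and are the first keratins made in the embryo. Desmoplakin ties such filaments to desmosomes, the spot-like junctions that hold neighbouring cells together. Angiomotin, encoded by Amot, sits at tight junctions and on actin filaments and binds YAP, the coactivator that the Hippo pathway restrains. Sox2 and Sox1 are HMG-box transcription factors, of which Sox2 maintains both pluripotent cells and neural progenitors and Sox1 marks the early neural plate. BMP and TGF-beta ligands signal through receptor kinases to Smad proteins, and the pathway is damped by inhibitors that it induces itself.

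Promoter windows, which run from 250 bases before to 50 bases after a RefSeq start (GRCm38.p6), are shown for 6 members whose letters the results refer to. Krt8 and Krt18 are next to each other on chromosome 15 and were the most strongly shared genes, Cnn2 and Arid3b are higher members with a CArG box (the binding sequence of serum response factor), and Sox2 and Sox1 are lower members with the core of the octamer, the sequence bound by POU factors such as Oct4. Capitals mark the GATA core AGATAA and the TATA box TATAAA in Krt8, the CArG box in Cnn2 and Arid3b and the octamer core ATGCAAA in Sox2 and Sox1, on either strand. The Krt8 window is chr15:102004293-102004592 on the minus strand, that of Krt18 chr15:102027966-102028265 on the plus strand, that of Cnn2 chr10:79988350-79988649 on the plus strand, that of Arid3b chr9:57836730-57837029 on the minus strand, that of Sox2 chr3:34649745-34650044 on the plus strand and that of Sox1 chr8:12395269-12395568 on the plus strand. The Krt18 window held neither the GATA core nor the TATA box in these letters and has no capitals. Arid3b has another window (chr9:57836435-57836734, minus strand), which is not shown and held the GATA core but no CArG box.
Krt8: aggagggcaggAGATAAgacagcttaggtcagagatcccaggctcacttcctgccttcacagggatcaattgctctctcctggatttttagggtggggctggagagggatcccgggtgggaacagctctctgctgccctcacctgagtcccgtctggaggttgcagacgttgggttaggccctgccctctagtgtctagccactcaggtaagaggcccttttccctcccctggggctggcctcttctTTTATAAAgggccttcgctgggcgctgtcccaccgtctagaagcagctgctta
Krt18: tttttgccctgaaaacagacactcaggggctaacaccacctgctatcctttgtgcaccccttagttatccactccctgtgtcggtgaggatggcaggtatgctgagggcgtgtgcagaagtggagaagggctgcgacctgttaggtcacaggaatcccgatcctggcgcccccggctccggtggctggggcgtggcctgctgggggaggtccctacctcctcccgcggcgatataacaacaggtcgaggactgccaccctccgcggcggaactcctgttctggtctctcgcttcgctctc
Cnn2: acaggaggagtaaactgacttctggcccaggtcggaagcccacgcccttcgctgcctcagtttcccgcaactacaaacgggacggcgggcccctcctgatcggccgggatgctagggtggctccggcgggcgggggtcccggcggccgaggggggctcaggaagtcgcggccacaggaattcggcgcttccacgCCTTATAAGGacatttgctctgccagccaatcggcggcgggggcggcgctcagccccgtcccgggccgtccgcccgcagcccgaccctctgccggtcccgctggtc
Arid3b: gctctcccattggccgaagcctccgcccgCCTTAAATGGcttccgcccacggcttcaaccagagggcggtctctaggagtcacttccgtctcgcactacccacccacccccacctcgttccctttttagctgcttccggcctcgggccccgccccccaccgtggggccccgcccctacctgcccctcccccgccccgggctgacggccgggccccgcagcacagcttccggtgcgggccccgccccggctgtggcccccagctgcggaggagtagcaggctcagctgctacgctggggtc
Sox2: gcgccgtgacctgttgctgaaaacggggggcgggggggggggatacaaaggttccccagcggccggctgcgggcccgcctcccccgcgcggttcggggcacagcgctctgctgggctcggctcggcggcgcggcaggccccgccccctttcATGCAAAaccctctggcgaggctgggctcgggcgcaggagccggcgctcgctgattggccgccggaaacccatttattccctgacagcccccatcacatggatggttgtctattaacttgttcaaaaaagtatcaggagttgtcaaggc
Sox1: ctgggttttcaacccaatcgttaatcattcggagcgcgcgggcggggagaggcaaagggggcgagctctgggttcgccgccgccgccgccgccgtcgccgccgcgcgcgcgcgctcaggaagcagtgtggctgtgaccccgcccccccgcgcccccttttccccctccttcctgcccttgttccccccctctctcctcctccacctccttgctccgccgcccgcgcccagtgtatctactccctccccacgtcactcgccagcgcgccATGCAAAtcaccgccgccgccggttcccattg

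**Figure D1:**
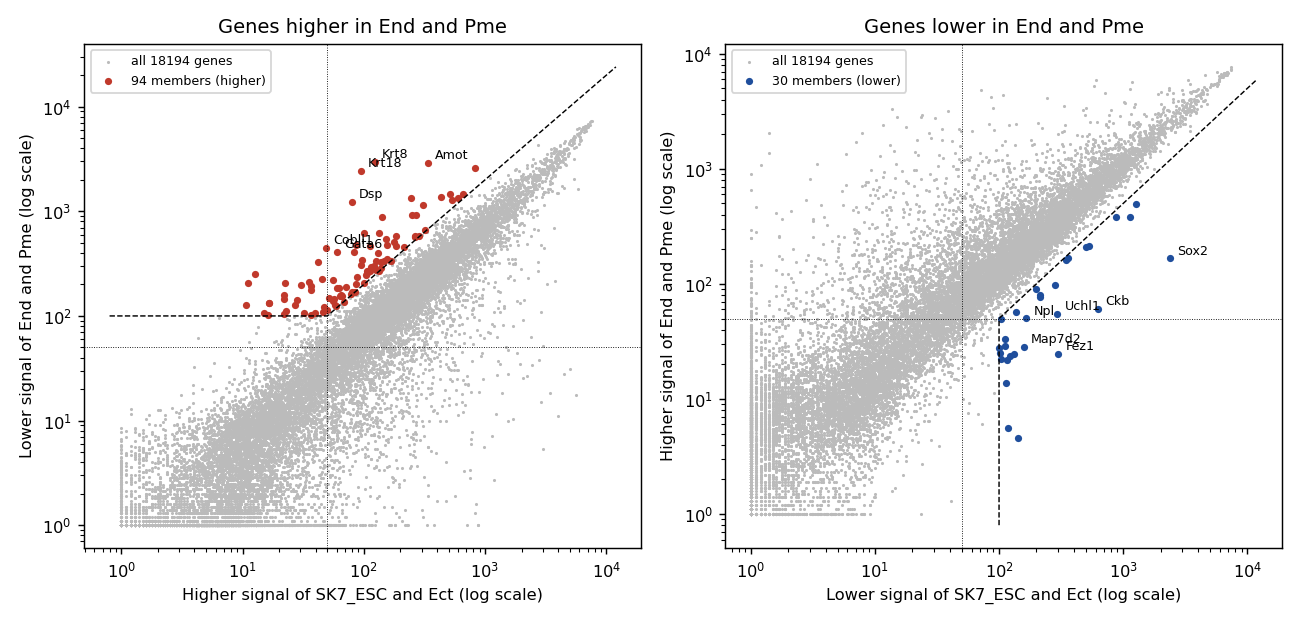
Each point is 1 of the 18194 genes, and both axes are signals on a log scale (under 1 drawn as 1). On the left the higher signal of SK7_ESC and Ect is set against the lower signal of End and Pme, with the 94 higher members in red, and on the right the lower signal of SK7_ESC and Ect is set against the higher signal of End and Pme, with the 30 lower members in blue. Dashed lines are the rule of 2-fold with a background of 50, dotted lines mark 50, and Krt18, Krt8 and Dsp lie farthest from the line among the higher genes.

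Keratins and desmosomal proteins led the higher genes. Signals of Krt18 were 4222 in End and 2451 in Pme, and 94.4 and 86.4 in SK7_ESC and Ect. The lower of the End and Pme signals was 26.0-fold the higher of the other pair. Krt8 measured 123 and 107 in SK7_ESC and Ect, with 4400.2 and 2969 in End and Pme, a ratio of 24.2, and all 3 of its probe sets met the rule. Both keratins were thus at most 123 in ES cells and ectoderm and well above 1000 in the other cultures. For Krt19, End and Pme gave 451 and 195 where SK7_ESC and Ect gave 36.8 and 9.0. It encodes another simple epithelial keratin. Against Ect, 3.67% and 3.68% of all genes were higher in End and Pme, respectively. Of 15 epithelial keratins these 3 were higher members, where 0.517% of all genes were. Under 50 in all 4 arrays were 8 of the 15 keratins and 8181 of all 18194 genes. The keratins of stratified skin, Krt5 and Krt14, were at most 17.5 and 11.6.

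Dsp, which encodes desmoplakin, gave the largest shared difference after the keratin pair. Dsp reached 1367 in End and 1236 in Pme, from 79.8 in SK7_ESC and 44.2 in Ect, a ratio of 15.5, and 3 of 3 probe sets met the rule. Signals of Dsc2 were 137 in End and 104 in Pme, and 21.9 and 6.6 in SK7_ESC and Ect. Desmocollin 2 is a desmosomal cadherin, and its ratio of at least 2.08 lay close to the limit. Pard6b measured 87.1 and 43.7 in SK7_ESC and Ect, with 234 and 257 in End and Pme. Par6 beta belongs to the complex that sets apical polarity, and its ratio was 2.69. End and Pme were within 2-fold of each other for Dsp, Dsc2 and Pard6b.

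The other genes of epithelial junctions did not follow the keratins. Of 32 measured junction genes on the list, Dsp and Dsc2 were the only higher members (6.25%, against 0.517% of all genes), and none was a lower member. Jam2, a junctional adhesion molecule gene outside the list, was a lower member, at 114 and 254 in SK7_ESC and Ect and 7.5 and 13.7 in End and Pme. Of the list, 11 genes were higher in End than in SK7_ESC and 3 in Pme, against 4.89% and 6.75% of all genes. Both counts include Dsp and Dsc2, which the rule selected. For Cdh1, End and Pme gave 2204 and 34.4 where SK7_ESC and Ect gave 1321 and 34.9. It encodes E-cadherin, the cadherin of adherens junctions. Epcam reached 1407 in End and 41.7 in Pme, from 921 in SK7_ESC and 21.1 in Ect. It encodes an epithelial adhesion protein. Signals of Cldn6 were 1789 in End and 25 in Pme, and 111 and 34.7 in SK7_ESC and Ect. It encodes a claudin of early embryonic epithelia. Esrp1 measured 144 and 9.3 in SK7_ESC and Ect, with 974 and 18.6 in End and Pme. It is a splicing regulator of epithelial cells. All 4 of these genes were therefore high in End and under 50 in Pme, where Krt8, Krt18 and Dsp were high. They do not stand for every junction gene. Of the 32, 22 reached 50 in End and 10 in Pme, Dsp and Dsc2 among them in both arrays. Of all 18194 genes 8291 and 8627 did. Pkp2, Tjp1 and Cldn12, which were not members, had 958, 1084 and 679.5 in Pme and 565, 1347 and 808 in End. The summed signal of the junction genes that were not members was 13468 in End, 4175 in Pme, 6375 in SK7_ESC and 2737 in Ect.

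**Figure D2:**
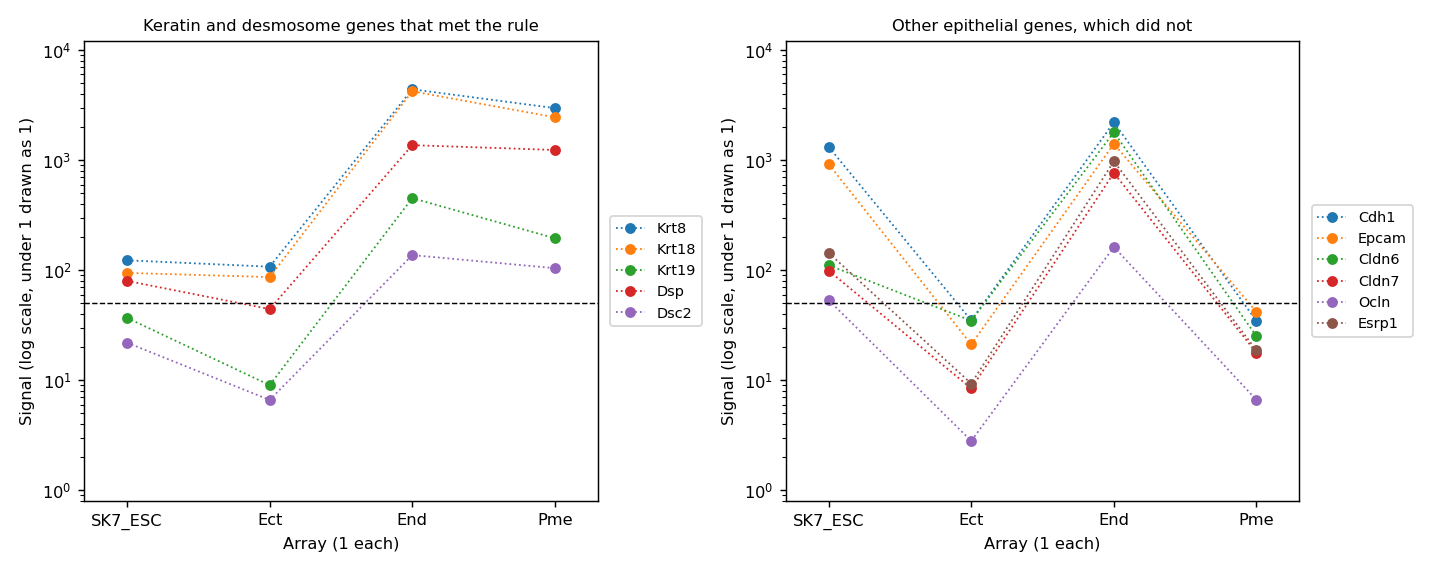
Signals (log scale, under 1 drawn as 1) in the 4 cultured arrays, 1 point for each gene and array, with the background of 50 as a dashed line and dotted lines joining the points of a gene. On the left the 5 keratin and desmosome genes are high in both End and Pme, and on the right 6 other epithelial genes are high in End and at most 41.7 in Pme. Junction genes with higher signals in Pme, such as Pkp2 and Tjp1, are not drawn.

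Amot was the only one of 29 angiomotin and Hippo pathway genes to meet the rule (3.45%, against 0.517% of all genes). For Amot, End and Pme gave 4848 and 2907 where SK7_ESC and Ect gave 71.1 and 337, a ratio of 8.63, and 3 of 3 probe sets met the rule. Ect lay between ES cells and the other layers for this gene, at 4.74-fold SK7_ESC. Its relatives differed. Amotl1 reached 311 in End and 446 in Pme, from 109 in SK7_ESC and 271 in Ect. Signals of Amotl2 were 255 in End and 418 in Pme, and 116 and 406 in SK7_ESC and Ect, so that neither was a member. Yap1 had 698 in SK7_ESC and 806 in Ect, with 1017 in End and 1082 in Pme. Of 2 genes often used as readouts of YAP, Ccn1 had 563 in Ect with 798 and 839 in End and Pme, and Ccn2 had 533 in Ect with 81.5 and 174 in End and Pme.

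Of 51 measured genes on the BMP and TGF-beta list, 6 were higher (11.8%, against 0.517% of all genes) and 0 lower. These 6 include Dkk1, which encodes a Wnt antagonist and is described with the Wnt genes. The 6 were the largest number of higher members among the 26 lists, but this list also had the most measured genes. By share, the epithelial keratins (3 of 15) and the imprinted genes (3 of 25) stood higher. Under 50 in all 4 cultured arrays were 5 of the 51 genes and 8181 of all 18194 genes. Among ligands, Bmp2 measured 6.7 and 12.6 in SK7_ESC and Ect, with 436 and 252 in End and Pme, at least 5.04-fold. It encodes a BMP ligand. For Tgfb1, End and Pme gave 236 and 208 where SK7_ESC and Ect gave 11 and 8.4. It encodes TGF-beta 1, and its ratio was at least 4.16, although its dimmer probe set stayed under 50 in every cultured array. Both ligand genes were under 50 in SK7_ESC and Ect, which makes these ratios lower bounds. Tgfbr3 reached 581 in End and 473 in Pme, from 59 in SK7_ESC and 85.4 in Ect. Betaglycan, its product, is a coreceptor that presents TGF-beta to the signalling receptors, and its ratio was 5.54. Signals of Cfc1 were 602 in End and 208 in Pme, and 12.3 and 22.2 in SK7_ESC and Ect. Cryptic, its product, is a coreceptor for Nodal and was not on the list. Tgfb1 and Tgfbr3 were nearly level between End and Pme, while Cfc1 was 2.89-fold higher in End.

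The intracellular and membrane inhibitors in this group were brighter in Pme than in End. Smad6 measured 45.6 and 44.4 in SK7_ESC and Ect, with 227 and 664 in End and Pme. It encodes an inhibitory Smad that BMP signalling induces, with Pme at 2.93-fold End. For Bambi, End and Pme gave 222 and 871 where SK7_ESC and Ect gave 55.3 and 46.9. It encodes a pseudoreceptor that blocks the pathway, with Pme at 3.93-fold End. Vasn reached 348 in End and 1146 in Pme, from 49.5 in SK7_ESC and 157 in Ect. It encodes vasorin, a trap for TGF-beta, and it was named after its values were seen. Signals of Bmper were 147 in End and 174 in Pme, and 28.5 and 51.7 in SK7_ESC and Ect. It encodes an extracellular modulator of BMPs, also named after its values were seen. The Id genes, common targets of BMP signalling, did not meet the rule. Id1 measured 107 and 302 in SK7_ESC and Ect, with 949 and 594 in End and Pme. Its ratio was 1.97, and Id3 was higher in Ect than in End. Bmp4 was high in Pme alone at 1084, with 36.7 in End, and Nodal was high in End at 513, with 50.4 in Pme.

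**Figure D3:**
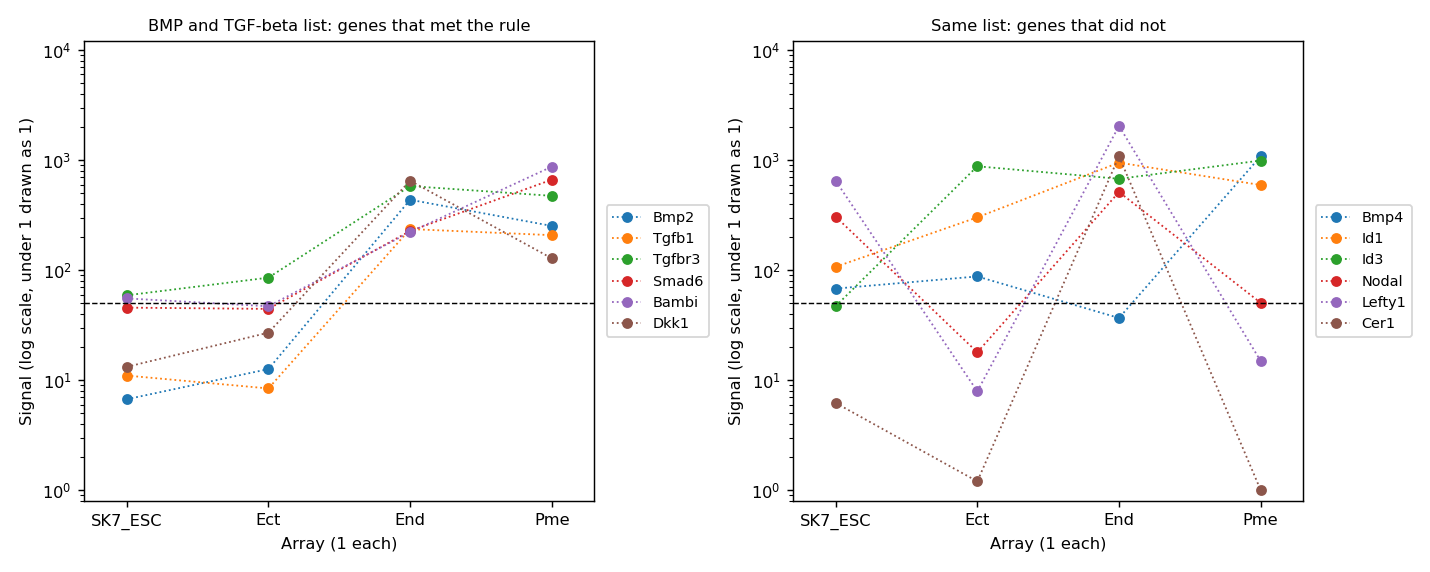
Signals (log scale, under 1 drawn as 1) of genes of the BMP and TGF-beta list in the 4 cultured arrays, 1 point for each gene and array, with the background of 50 as a dashed line and dotted lines joining the points of a gene. The 6 genes on the left are at or above 127.9 in both End and Pme and at most 85.4 in SK7_ESC and Ect, and the 6 on the right did not meet the rule.

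Wnt antagonists were split between the directions. For Dkk1, End and Pme gave 649.7 and 128 where SK7_ESC and Ect gave 13.2 and 27, at least 2.56-fold. It encodes an antagonist of the LRP coreceptors, is also on the BMP and TGF-beta list, and was 5.08-fold higher in End than in Pme. Frzb reached 425 in End and 187 in Pme, from 7.3 in SK7_ESC and 71.6 in Ect, a ratio of 2.61. It encodes a secreted Frizzled-related protein that binds Wnt ligands. Signals of Sfrp2 were 44.5 in End and 98.3 in Pme, and 283 and 1819.8 in SK7_ESC and Ect, and this relative of Frzb was the lower member of the list, with a ratio of 2.88. Of 33 Wnt pathway genes, 2 were higher (6.06%) and 1 lower (3.03%), against 0.517% and 0.165% of all genes. Outside the list, Tmem88, Prickle1 and Cthrc1, whose products act on Dishevelled or on the planar branch of the pathway, were also higher members, with ratios of 2.38, 2.01 and 2.09.

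Transcription factors of the shared set included a single GATA factor. Gata6 measured 60.6 and 45.5 in SK7_ESC and Ect, with 999.7 and 409 in End and Pme, a ratio of 6.74. It acts in both endoderm and heart mesoderm. For Klf6, End and Pme gave 531 and 512 where SK7_ESC and Ect gave 179 and 147. It encodes a zinc finger factor, and its End and Pme signals differed by 1.04-fold. Hes1 reached 564 in End and 471 in Pme, from 113 in SK7_ESC and 112 in Ect. It encodes a Notch-responsive repressor. Signals of Arid3b were 309 in End and 317 in Pme, and 95.3 and 79.7 in SK7_ESC and Ect. It encodes an ARID-domain DNA-binding protein. These 4 genes had Ect signals at or below those of SK7_ESC. Myc measured 101 and 57.8 in SK7_ESC and Ect, with 207 and 218 in End and Pme, a ratio of 2.05. For Prdm6, End and Pme gave 159.8 and 593 where SK7_ESC and Ect gave 10 and 21.8. It encodes a PR-domain factor of vascular smooth muscle and was 3.71-fold higher in Pme. Of 48 endoderm and mesoderm transcription factors on the list, Gata6 and Klf6 were higher (4.17%) and Tcf15 was lower (2.08%). Of all genes 0.517% were higher and 0.165% lower. Gata4 lay just outside at 1.97, and Sox17, at 2942 in End and 23.1 in Pme, was far from shared.

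Of 25 imprinted genes, 3 were higher and 0 lower, against 0.517% and 0.165% of all genes. Peg3 reached 2596 in End and 4115 in Pme, from 244 in SK7_ESC and 819 in Ect. It is a paternally expressed zinc finger gene, and its ratio was 3.17. Signals of Igf2 were 583 in End and 2384 in Pme, and 121 and 186 in SK7_ESC and Ect. It encodes a fetal growth factor, and Pme was 4.09-fold End. Asb4 measured 7.0 and 16.4 in SK7_ESC and Ect, with 295 and 132 in End and Pme. It belongs to a family of ubiquitin ligase adaptors, and its ratio was at least 2.63. Rian, a maternally expressed noncoding RNA that was not on the list, had 320.0 and 251 in SK7_ESC and Ect and 664 and 1018 in End and Pme. Only 1 of its 4 probe sets met the rule. Meg3, from the same imprinted region as Rian, lay just below the rule at 1.88.

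Genes of the actin cytoskeleton differed in how evenly End and Pme shared them. For Cnn2, End and Pme gave 1158 and 1184 where SK7_ESC and Ect gave 310.3 and 299.6. Calponin 2 binds actin, its ratio was 3.73, and End was 0.98-fold Pme. Csrp1 reached 542 in End and 1161 in Pme, from 152 in SK7_ESC and 153 in Ect. It encodes a LIM protein of actin bundles, with Pme at 2.14-fold End. Signals of Tpm1 were 1332 in End and 2099 in Pme, and 319.9 and 594 in SK7_ESC and Ect. Tropomyosin 1 winds along actin filaments. Tgfb1i1 measured 32.2 and 23.5 in SK7_ESC and Ect, with 106 and 183 in End and Pme. Hic-5, its product, is an adaptor of focal adhesions. These 4 were the higher members among 44 actin and contraction genes (9.09%, against 0.517% of all genes), with 0 lower. The focal adhesion genes Tes and Lpp and the actin-associated genes Mical1, Baiap2l1, Arhgef5, Stard8 and Slc9a3r1 were also higher members. Stard8 was the least even of all, with 36.9 and 32 in SK7_ESC and Ect and 102 and 1056 in End and Pme, so that Pme was 10.3-fold End.

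For the extracellular matrix, 3 of 46 listed genes were higher (6.52%, against 0.517% of all genes). For Mmp14, End and Pme gave 401 and 403 where SK7_ESC and Ect gave 131 and 129. It encodes a membrane-anchored collagenase, and its End and Pme signals had a ratio of 1.0. Col4a1 reached 712 in End and 575 in Pme, from 263 in SK7_ESC and 115 in Ect. It encodes a basement membrane collagen chain. Signals of P4ha1 were 402 in End and 277 in Pme, and 127 and 126 in SK7_ESC and Ect. It encodes a subunit of collagen prolyl hydroxylase. The partner chain Col4a2 had 142.9 in End, 242 in Pme and 133.5 in SK7_ESC and did not meet the rule. Adamts9, Reck, Col23a1 and Cpm were further higher members, with ratios of 3.56, 3.52, 2.04 and 2.22, and of these Reck, an inhibitor of matrix metalloproteases, was above 50 in all 4 arrays. 

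Receptors and surface proteins made up a further part of the higher genes. Nrp1 measured 30.9 and 101 in SK7_ESC and Ect, with 620.0 and 819 in End and Pme. Neuropilin 1 is a coreceptor for VEGF and semaphorins, and its ratio was 6.15. For Vegfa, End and Pme gave 389 and 333 where SK7_ESC and Ect gave 146 and 139.8. It encodes that growth factor. Aplnr reached 901 in End and 625 in Pme, from 0.2 in SK7_ESC and 134 in Ect. The apelin receptor is a G protein-coupled receptor of early mesoderm, and its ratio was 4.67. Ect exceeded SK7_ESC by at least 2-fold for Nrp1 and Aplnr but not for Vegfa. Signals of Podxl were 2439 in End and 1327 in Pme, and 83.3 and 245 in SK7_ESC and Ect. Podocalyxin is a sialomucin of apical membranes. S100a10 measured 512 and 208 in SK7_ESC and Ect, with 2523 and 1462 in End and Pme. It encodes the partner of annexin A2. Unc5b, Lpar1, Gas6, Gprc5c, Vldlr, C1qtnf12, Cd59a, Pcdh7, Lrrn4, Cbln1 and Mfap3l completed the receptors, ligands and surface proteins, with ratios between 2.18 and 4.22.

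Enzymes and transporters among the higher genes were led by Mogat2 and Car4. For Mogat2, End and Pme gave 481 and 326 where SK7_ESC and Ect gave 41.5 and 31.2. It encodes an acyltransferase of intestinal fat absorption, and its ratio was at least 6.52. Car4 reached 2772 in End and 882 in Pme, from 140.3 in SK7_ESC and 30.5 in Ect. It encodes a membrane-bound carbonic anhydrase, and its ratio was 6.29. Signals of Slc40a1 were 426 in End and 141 in Pme, and 28.3 and 17.2 in SK7_ESC and Ect. Ferroportin, its product, is the iron exporter. Among the lower genes, Tfrc measured 1482 and 1259 in SK7_ESC and Ect, with 499.6 and 469 in End and Pme. It encodes the transferrin receptor, through which cells take up iron. Slc25a24, Elovl1, Cers4, Gcnt1, Eogt, Stbd1 and Polg had ratios between 2.02 and 3.03. For Cobll1, End and Pme gave 447 and 644 where SK7_ESC and Ect gave 46.7 and 49. Its ratio of at least 8.94 was the fourth highest of the 94 higher genes. Spin2c reached 409 in End and 1580.5 in Pme, from 48.7 in SK7_ESC and 82.3 in Ect. This member of the spindlin family was 3.87-fold higher in Pme. Signals of Capn6 were 196 in End and 929.6 in Pme, and 11.9 and 30.6 in SK7_ESC and Ect. It encodes a calpain without protease activity and was 4.75-fold higher in Pme.

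The remaining higher members were Herpud1, Rhbdd1, Tapbp and Trim12c, of protein quality control, antigen loading and the TRIM family, Prkd1, Rras, Pik3ip1, Clic1 and Ppfibp1, of kinase and GTPase signalling, Nab1, Pwwp3b and Brwd3, of transcription and chromatin, and Rbms1, Hcfc1r1, Tuft1, Vwa5a and Sertad4. Their ratios lay between 2.0 and 3.73. The grouping of members by role was made after their values were seen.

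As a whole the 94 higher genes had a median ratio of 2.58, between 2.0 and 26.0, and 58 of them were under 3. In 46 of them both dim arrays were at or above 50, in 21 of them 1 was under 50, and in 27 both were, so that these 27 ratios are lower bounds. End and Pme were within 2-fold of each other for 68 genes, 13 genes were at least 2-fold higher in End, as were 2.56% of all genes, and 13 in Pme, as were 3.91%. Ect and SK7_ESC were within 2-fold for 83. Ect was at least 2-fold higher than SK7_ESC for 8, as were 6.63% of all genes, and lower for 3, as were 4.89%. Of the 67 higher genes with more than 1 probe set, 31 had more than 1 that met the rule, and in 17 all did.

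**Figure D4:**
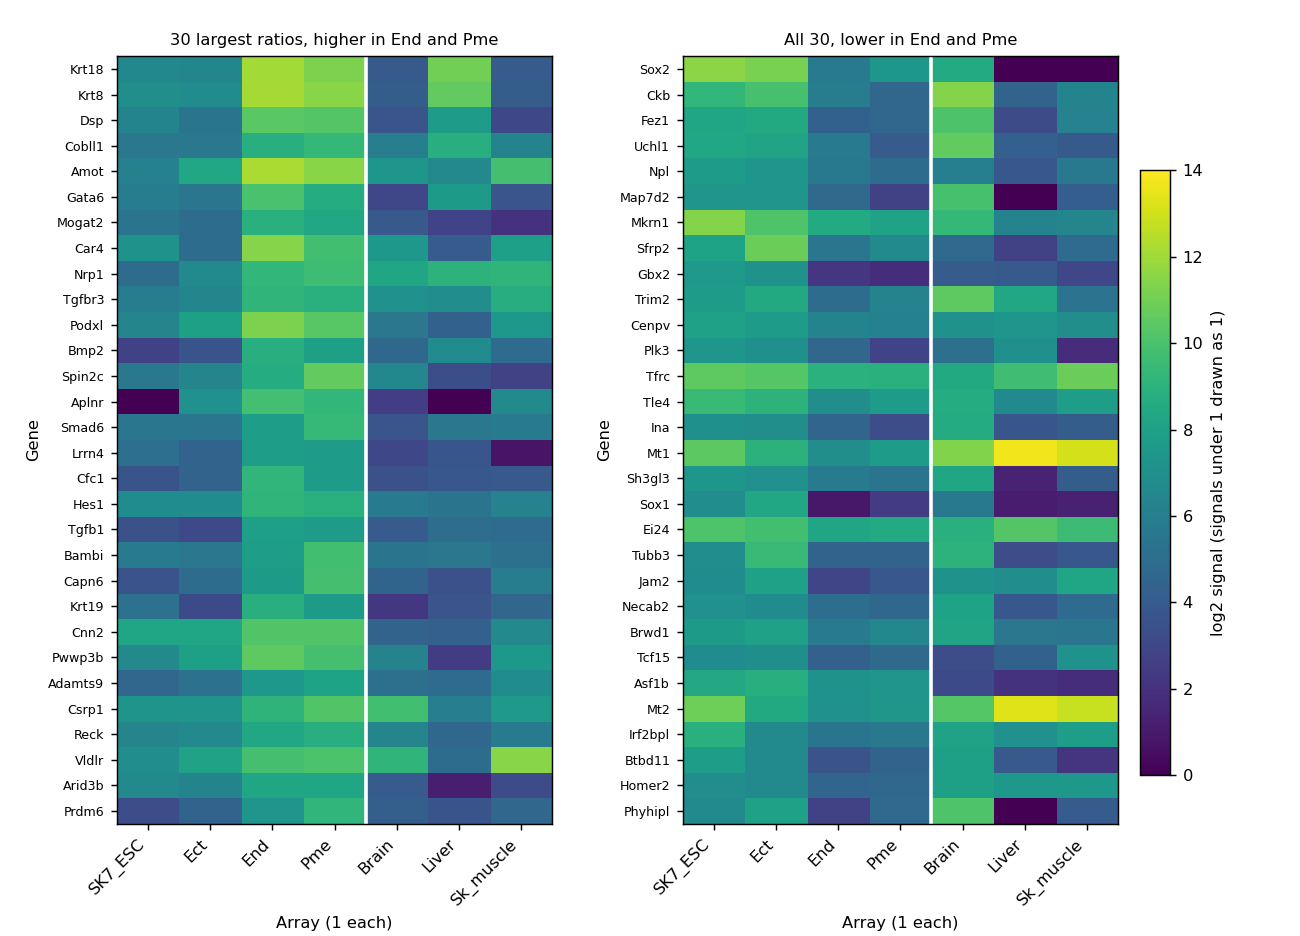
Colours show the log2 signal of each gene (set to 1 where lower) on the 7 arrays, 1 for each condition, with a white line between cultures and adult tissues. The 30 higher genes with the largest ratios are on the left and all 30 lower genes on the right, in order of the ratio. Krt8 and Krt18 are bright in Liver, and many lower genes are bright in Brain.

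Sox2 led the 30 lower genes. Sox2 measured 3029.7 and 2369 in SK7_ESC and Ect, with 52.1 and 167 in End and Pme. SK7_ESC and Ect differed by 1.28-fold, and the ratio of the lower of these to the higher of End and Pme was 14.2. Lower in End than in Ect were 3.9% of all genes, and in Pme 2.67%. With signals under 50 raised to 50, Sox2 was also the only lower gene for which End and Pme differed by at least 2-fold. Both of these signals were under 50 in 14 of the 30 genes, and 1 of them in 6 genes. The background can hide differences between End and Pme in these genes. For Sox1, End and Pme gave 1.9 and 5.6 where SK7_ESC and Ect gave 118 and 337. Its ratio was at least 2.36, and only the brighter of its 2 probe sets met the rule. Gbx2 was at 188 and 142 in SK7_ESC and Ect and at 4.6 and 3.5 in End and Pme. It encodes a homeobox factor that patterns the hindbrain. Signals of Tcf15 were 19.6 in End and 29.1 in Pme, and 111 and 125 in SK7_ESC and Ect. Paraxis, its product, is a factor of somites. Tcf15 is on the paraxial mesoderm list, and the rule selected it for its low signals in End and Pme. Tle4 measured 682 and 527 in SK7_ESC and Ect, with 123 and 213 in End and Pme. It encodes a Groucho corepressor. Brwd1, Irf2bpl and Asf1b, of chromatin and transcription, had ratios of 2.23, 2.07 and 2.16. Only 1 of 5 probe sets of Brwd1 and 1 of 3 of Irf2bpl met the rule, and another of Brwd1 gave 0.94. Of 38 genes of ES cells and neural progenitors, Sox2 and Sox1 were the only members (5.26%, against 0.165% of all genes). Sox3, Sox11 and Sox21 had 553.5, 3068 and 583 in Ect against 33.5, 119.8 and 49.1 in SK7_ESC.

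Genes known from neurons made up another part of the lower set. They were above background in ES cells as well as in Ect, which the rule requires of every lower member. For Fez1, End and Pme gave 20.4 and 24.8 where SK7_ESC and Ect gave 301 and 356. It encodes a kinesin adaptor of axonal transport, and its ratio was at least 6.02. Uchl1 was at 326 and 294 in SK7_ESC and Ect and at 54.8 and 16.4 in End and Pme. It encodes an abundant neuronal ubiquitin hydrolase. Signals of Tubb3 were 21.7 in End and 21.8 in Pme, and 116 and 721 in SK7_ESC and Ect. Class III beta-tubulin was 6.2-fold higher in Ect than in SK7_ESC. Ina measured 129.5 and 123 in SK7_ESC and Ect, with 23.7 and 9.9 in End and Pme. It encodes internexin, a neuronal intermediate filament protein. For Map7d2, End and Pme gave 28.5 and 6.7 where SK7_ESC and Ect gave 159 and 159.8. It encodes a microtubule-associated protein. Trim2 was at 215 and 367 in SK7_ESC and Ect and at 31.4 and 77.7 in End and Pme. It encodes a ubiquitin ligase of axons. Of 30 neuron genes on the list, Tubb3 and Ina were the only lower members (6.67%, against 0.165% of all genes) and 0 were higher. In Ect 13 were higher than in SK7_ESC, as were 6.63% of all genes. On this list 7 genes reached 50 in SK7_ESC and 20 in Ect, both counts including Tubb3 and Ina. Of all 18194 genes 8086 and 8584 did. Sh3gl3, Necab2, Homer2, Phyhipl and Btbd11, grouped here with the neuronal genes, had ratios between 2.0 and 2.38.

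Genes of energy and metal handling followed. Signals of Ckb were 60.4 in End and 25 in Pme, and 627 and 969.9 in SK7_ESC and Ect. Brain-type creatine kinase had a ratio of 10.4, the next highest after Sox2. Mt1 measured 1429.9 and 506 in SK7_ESC and Ect, with 119 and 207 in End and Pme. For Mt2, End and Pme gave 133 and 168 where SK7_ESC and Ect gave 1926 and 358. Metallothioneins bind zinc and copper, and both genes, which are neighbours in the genome, were higher in SK7_ESC than in Ect by 2.82-fold and 5.39-fold. Ei24 was at 1118 and 879.8 in SK7_ESC and Ect and at 299 and 378 in End and Pme. It is a p53 target and the neighbour of Fez1. Signals of Mkrn1 were 383 in End and 268 in Pme, and 2723 and 1132 in SK7_ESC and Ect. It encodes a ubiquitin ligase and was 2.41-fold higher in SK7_ESC than in Ect. Npl measured 214 and 165 in SK7_ESC and Ect, with 50.1 and 30.4 in End and Pme. It encodes a sialic acid lyase. Cenpv, Plk3 and Jam2 had ratios of 2.65, 2.64 and 2.27. The lower genes had a median ratio of 2.45, 24 of the 30 were under 3, and 14 ratios were lower bounds. None of the 14 lower genes with more than 1 probe set had all of them meet the rule.

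The values ran on without a gap across the limit of the rule. The 3 higher genes just inside were Rhbdd1 at 2.003, Prickle1 at 2.008 and Slc25a24 at 2.019, and the 3 just outside were Tnfrsf12a at 1.999, Poglut3 at 1.998 and Naaa at 1.996. On the lower side Phyhipl at 2.004, Homer2 at 2.028 and Btbd11 at 2.058 were inside, and Lrp2 at 1.996, Eda2r at 1.98 and Dmd at 1.956 were outside.

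The adult arrays, which entered the choice of a gene's probe set and not the rule, differed between the directions. Of the 30 lower genes, 14 (46.7%) were at least 2-fold higher in Brain than in both Liver and Sk_muscle, against 10.9% of all genes and 13.2% of genes that reached 50 in a cultured array. They were Sox2, Ckb, Fez1, Uchl1, Map7d2, Mkrn1, Trim2, Ina, Sh3gl3, Tubb3, Necab2, Brwd1, Btbd11 and Phyhipl. Ckb had 2712 in Brain, 21.6 in Liver and 79.6 in Sk_muscle, a ratio of 34.1 over the next tissue. Uchl1 had 1577 in Brain, 19.5 in Liver and 15.6 in Sk_muscle, a ratio of at least 31.5. Sox2 had 374 in Brain, 0.6 in Liver and 0.3 in Sk_muscle, so that the adult brain signal was well under that of SK7_ESC and Ect. In Liver 1 lower gene (3.33%), Plk3, and in Sk_muscle 3 genes, Tfrc, Jam2 and Tcf15, were 2-fold over both other tissues.

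Of the 94 higher genes, 17 (18.1%) were at least 2-fold higher in Liver than in both other tissues, against 7.71% of all genes and 8.73% of genes that reached 50 in a cultured array. Krt18 had 15.7 in Brain, 2092 in Liver and 16.9 in Sk_muscle, at least 41.8-fold over the next tissue. Krt8 had 17.2 in Brain, 1613 in Liver and 17.8 in Sk_muscle, at least 32.3-fold. Hepatocytes keep this keratin pair, and Liver was the only adult array above background for either gene. Dsp had 12.7 in Brain, 212 in Liver and 8.2 in Sk_muscle, and Gata6 had 8.0 in Brain, 197 in Liver and 13 in Sk_muscle. The others in Liver were Cobll1, Bmp2, Mmp14, Slc40a1, Nab1, Lpp, Tuft1, Slc9a3r1, Baiap2l1, Elovl1, Tapbp, Herpud1 and Rhbdd1. Sk_muscle had 12 higher genes (12.8%, against 7.47% of all genes and 10.3% of genes that reached 50 in a cultured array), which were Tpm1, Amot, Tgfbr3, Podxl, Pwwp3b, Adamts9, Vldlr, Klf6, Tmem88, Col4a1, Hcfc1r1 and Slc25a24. Tpm1 had 152 in Brain, 169.7 in Liver and 13029 in Sk_muscle, a ratio of 76.8. Amot had 161 in Brain, 96.8 in Liver and 929 in Sk_muscle, a ratio of 5.76. Brain had 7 (7.45%), Csrp1, Peg3, Mfap3l, Pcdh7, Cbln1, Rian and Prickle1.

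Some shared genes were at background in the adult arrays. Of the 94 higher genes, 17 (18.1%) were under 50 in all 3 tissues, among them Mogat2, Cfc1, Tgfb1, Bambi, Krt19, Arid3b and Dkk1, against 38.2% of all genes and 12.4% of genes that reached 50 in a cultured array. At or above 50 were 55 (58.5%) in Brain, 46 (48.9%) in Liver and 59 (62.8%) in Sk_muscle, where 77.1%, 68.2% and 70.0% of the genes that reached 50 in a cultured array were, and 49.9%, 43.0% and 43.3% of all genes. Of the lower genes 25 (83.3%), 12 (40.0%) and 13 (43.3%) were, and Sfrp2, Gbx2 and Asf1b were under 50 in all 3.

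**Figure D5:**
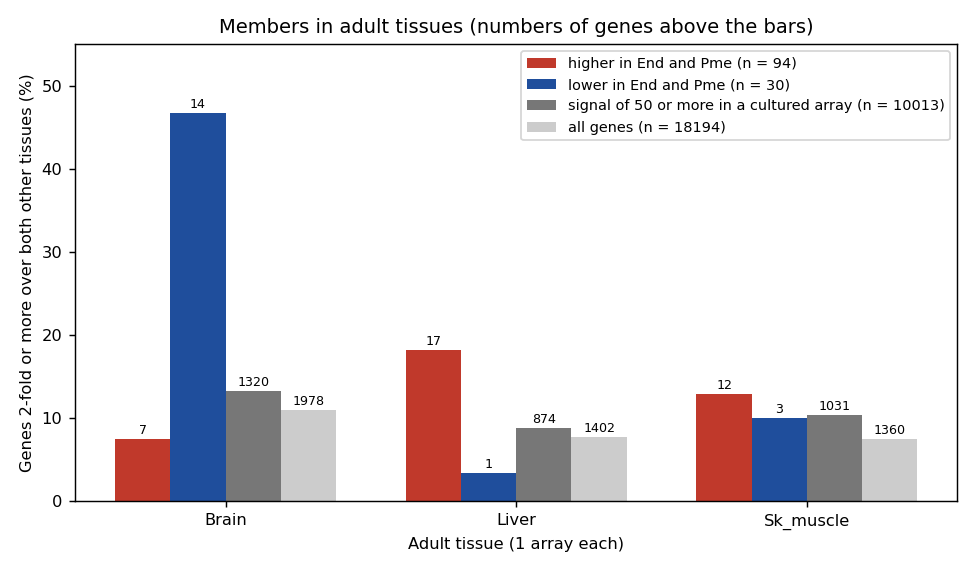
Bars give the percentage of genes at least 2-fold higher in 1 adult tissue than in both others, with the number of genes above each bar, for the higher members, the lower members, the 10013 genes that reached 50 in a cultured array and all 18194 genes. The lower members stand at 46.7% in Brain and the higher members at 18.1% in Liver.

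Genes of other cell types were set beside the shared genes. Keratin 8 and keratin 18 also mark trophoblast. Of 21 trophoblast genes 6 were higher in End than in SK7_ESC and 8 in Pme, against 4.89% and 6.75% of all genes. Both counts include Krt8 and Krt18, which the rule selected. Without that keratin pair the list summed to 2064 in End and 3223 in Pme, and to 856 and 642 in SK7_ESC and Ect. Of its genes Elf5 and Tpbpa were at most 9.4 in all 4 cultured arrays, while Cdx2 had 415, Hand1 469.5 and Plac1 642.5 in Pme and Eomes had 1246 in End. Of 31 genes of primitive and visceral endoderm, Gata6 and Col4a1 were higher members, where 0.517% of all genes were. Higher than in SK7_ESC were 7 genes in End and 6 in Pme (4.89% and 6.75% of all genes), both counts including these members. The list without members summed to 8660 in End, 5905 in Pme, 2550 in Ect and 6184.5 in SK7_ESC. Of the list, Afp, Ttr, Apoa1 and Sox7 were at most 27.6 in all 4, while Sox17 had 2942, Lamb1 1601 and Gata4 248 in End and Pdgfra had 1062 and Dab2 299 in Pme. Of 21 endothelium and blood genes, 2 were higher in End and 1 in Pme than in SK7_ESC (4.89% and 6.75% of all genes). In all 4 arrays 14 were under 50. The part of these cell types in the shared signals was not tested.

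RefSeq promoter windows were found for 71 of the 94 higher genes (94 windows), 28 of the 30 lower genes (41 windows) and 14453 measured genes (18110 windows), and 10 motifs were searched on both strands. The CArG box, CC and GG around 6 bases of A or T, was in 5 of the 94 higher windows (5.32%), those of Arid3b, Cnn2, Herpud1, Igf2 and Stbd1, in 0 of 41 lower windows and in 1.35% of all windows. The octamer core ATGCAAA was in 5 of the 41 lower windows (12.2%), those of Sox2, Sox1, Sfrp2, Sh3gl3 and Btbd11, in 4.26% of the higher windows and in 3.85% of all. Both rest on 5 windows, shown in part in the sequences of Cnn2, Arid3b, Sox2 and Sox1 above. The TEAD core GGAATG was in 18.1% of the higher, 9.76% of the lower and 13.2% of all windows, and the AP-1 site TGANTCA in 2.13%, 9.76% and 6.38%. The GATA core AGATAA stood in 9.57%, 2.44% and 8.09%, the TATA box TATAAA in 7.45%, 12.2% and 9.77%, and the SOX core ACAATG in 8.51%, 7.32% and 9.4%. The E-box CANNTG, the GC box GGGCGG and the SMAD core GTCTG were in 66.0%, 58.5% and 48.9% of the higher windows, 65.9%, 58.5% and 41.5% of the lower and 67.4%, 52.3% and 48.8% of all. In windows of genes that reached 50 in a cultured array these 3 stood at 62.5%, 65.2% and 46.4%, so that both directions were under it for the GC box. The CArG box, octamer, TEAD, AP-1, GATA, TATA and SOX motifs stood there at 1.39%, 3.33%, 11.8%, 4.59%, 5.7%, 6.95% and 7.05%. The letters of the E-box, the SMAD core and the AP-1 site are short and can overlap other motifs, and a match describes the letters only. The windows of the lower genes held a median of 23 CpG dinucleotides and those of the higher genes 16, against 16 in all windows and 21 in windows of genes that reached 50 in a cultured array.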

How the data were processed

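Linear intensity values were deposited by the authors for 45101 probe sets on each of 7 Affymetrix arrays. The paper describes a global scaling that set each array's average to 100. The plain mean ran from 141.2 in Brain to 204.2 in Sk_muscle, and the mean trimmed by 2% at both ends came to 100.0 on every array. How probes were summarised is not given in the sources. The platform annotation lists 1 symbol for 34958 probe sets, several for 932 and none for 9211, and 34754 were matched by Entrez identifier to RefSeq (GRCm38.p6), with 0 symbols changed. Each of 18194 genes took, of its single-symbol probe sets, the brightest by mean log2 signal over the 7 arrays, signals under 50 were raised to 50, and ratios of at least 2 were called. Summing over lists used signals as deposited.

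The members, lists, motifs and alternatives were chosen with earlier results of these data known. Named by rule were Amot, Krt8, Krt18, the 15 largest ratios in each direction, up to 6 members of each list and direction, and the 3 genes on each side of the limit, leaving out predicted genes. Genes beyond these were named after their values were seen. With 1 array a condition no test was possible, and precision is limited by the number of arrays. Comparisons share the same 4 cultured arrays. The alternatives were a background of 20, no background, a 3-fold rule, the geometric mean over the probe sets of a gene, quantile normalization, equal medians, and omission of probe sets with identifiers that mark shared sequence. The rule was tested on simulated data. Python 3.11.15, numpy 2.4.6, pandas 2.3.3, scipy 1.17.1 and matplotlib 3.10.9 were used. The labels and the methods name different RNA extraction reagents.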

Additional observations from a re-analysis of the deposited data

How the results depend on the processing

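With quantile normalization, equal medians, the geometric mean of probe sets and without probe sets of shared sequence, the higher genes numbered 89, 93, 70 and 85, of which 83, 83, 66 and 82 were among the 94, and the lower genes 32, 36, 23 and 23, of which 27, 30, 19 and 23 were among the 30. In these and the lower backgrounds, 52 higher and 17 lower members met the rule throughout. Krt8 is measured only by probe sets of shared sequence and met it in every other setting. With a background of 20 the lower genes numbered 66, and the higher genes at or above it numbered 100 in Brain, 94 in Liver and 101 in Sk_muscle, with 55, 26 and 29 of the lower genes. Under it, 38 lower genes were 2-fold higher in Brain (57.6%, with 14.3% of all genes) and 34 higher genes in Liver (24.6%, with 9.14%). Without a background 431 genes were higher and 417 lower, with 143 of the lower in Brain, 92 of the higher in Liver and 64 list genes among them. No count above background exists without a background. With a 3-fold rule 36 genes were higher and 6 lower, with 15, 14 and 20 of the higher and 6, 0 and 2 of the lower at or above 50 in Brain, Liver and Sk_muscle, 5 of the lower 2-fold in Brain, 7 of the higher in Liver and 18 list genes. The settings of the shares in Brain and Liver were chosen after seeing the data, and those shares stayed above the share of all genes in each.

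Of the 60 genes named by rule, the geometric mean of probe sets took 16 below the rule, among them Tgfb1 and Sox1 at 1.0, Dkk1 at 1.08, Igf2 at 1.44 and Peg3 at 1.64, quantile normalization took 6, the same median 4 and leaving out shared sequence 4, among them Aplnr at 1.18. Signals near 50 limit the ratios of dim genes to lower bounds. No paired analysis was possible because each condition has 1 array.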

Other observations

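Among the 10143 probe sets without a single gene symbol, 7 met the rule in the higher direction and 2 in the lower direction. They are not named here: 6 of the higher ones and both lower ones have no symbol in the annotation, and 1 higher one has several.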
